A study of Homo sapiens with 6 samples.

Results

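CYP1B1 and 5 genes of the aryl hydrocarbon receptor pathway (CYP1A1, AHR, AHRR, ARNT and TIPARP) were examined in MDA-MB-231 cells, a triple-negative human breast cancer line, and in 231-BR cells, its variant that metastasizes to the brain. The 6 genes were picked by symbol among the 17039 genes of the expression table, with CYP1B1 taken up because its level was known to differ strongly between the lines, so that the differences of the members are described without a test. Poly(A) RNA was sequenced in 3 libraries of each line, and expression was given as FPKM (fragments scaled by the length of the transcript and by all mapped fragments of the library), a unit in which levels of different genes can be set side by side. Both lines were grown in DMEM with 10% fetal bovine serum and 1% penicillin-streptomycin. The medium of 231-BR cells also held 200 μg/mL G418, a selection antibiotic. The 231-BR cells were a gift from another laboratory, whereas MDA-MB-231 cells were bought from ATCC. The line, the drug and the source of the cells therefore cannot be told apart. Parental means this MDA-MB-231 stock in what follows. Each line is a single cell line, and nothing states that the replicates were separate cultures, so that p-values measure the spread between these libraries only. The names in the cell line field of the labels count upward with the replicate, and the libraries were grouped by their titles.

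The aryl hydrocarbon receptor, encoded by AHR, is a ligand-activated transcription factor of the bHLH-PAS family that rests in the cytoplasm with HSP90 and its cochaperones. After binding planar aromatic compounds or tryptophan metabolites it enters the nucleus, pairs with ARNT and binds the xenobiotic response element, whose core is GCGTG, at genes such as CYP1A1, CYP1B1, AHRR and TIPARP. The AHRR and TIPARP proteins in turn restrain the receptor. CYP1A1 and CYP1B1 are cytochrome P450 enzymes that oxidize polycyclic hydrocarbons and estrogens, with CYP1B1 known for the 4-hydroxylation of estradiol and for its presence in many tumours.

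The libraries were alike in their sums, from 465020 to 472007 FPKM in 231-BR cells and from 486937 to 496420 in MDA-MB-231 cells, and the depth in reads is unknown. Of the markers of a basal, mesenchymal breast line, all 6 (VIM, CD44, CAV1, CAV2, ANXA1 and AXL) had means of at least 20.7 FPKM in both lines. Of 8 luminal markers, 4 reached a mean of 1 FPKM in 231-BR and 2 in MDA-MB-231 cells. KRT8, at 176 and 237 FPKM, and EPCAM, at 8.70 and 5.06 FPKM, did so in both lines. FOXA1 (5.47 against 0.84 FPKM) and GATA3 (1.24 against 0.433 FPKM) did so in 231-BR alone. The mean of CDH1 was 0.00667 FPKM in 231-BR and 0.0133 FPKM in MDA-MB-231 cells. Among markers of brain cells and leukocytes, SYT1, with 6.35 FPKM in 231-BR and 0.38 FPKM in MDA-MB-231 cells, GAD1 (3.99 and 4.93 FPKM), MBP (21.0 and 13.6 FPKM) and CD68 (82.9 and 63.5 FPKM) reached 1 FPKM in a line, and the other 13 in the table did not. The part of these markers in the results was not tested.

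CYP1B1 was the member that set the lines apart. In MDA-MB-231 cells it had 19.51, 19.11 and 19.77 FPKM in replicates 1, 2 and 3. In 231-BR cells it had 1.15, 1.21 and 1.24 FPKM. The libraries of each line lay close together, and the lines were far from overlapping. The parental mean was 19.5 ± 0.332 FPKM and the 231-BR mean 1.20 ± 0.0458 FPKM (SD, n = 3), so that the former was 16.2 times as high, and the difference on the log2(FPKM + 0.1) scale used throughout was -3.91. Among the 17039 genes, the mean of CYP1B1 lay at percentile 76.7 in MDA-MB-231 cells and at percentile 35.7 in 231-BR cells. When the 13465 genes with a mean of at least 0.1 FPKM over the 6 libraries were ordered by their difference, CYP1B1 was at place 34 from the lowest.

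CYP1A1, its closest relative in function among the members, was low in both lines. It had 2.18, 2.37 and 2.43 FPKM in the MDA-MB-231 libraries and 1.12, 1.35 and 1.25 FPKM in the 231-BR libraries. The lines did not overlap, and the mean was 1.88 times as high in MDA-MB-231 cells, a difference of -0.86 on the log2 scale. Both P450 genes were thus lower in 231-BR cells, by very different amounts.

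AHR, the receptor itself, lay the other way. It had 12.02, 11.31 and 11.76 FPKM in the 231-BR libraries against 7.36, 7.07 and 6.79 FPKM in the MDA-MB-231 libraries. Its mean was 1.65 times as high in 231-BR cells, a log2 difference of 0.72. ARNT, the partner that AHR needs for DNA binding, was somewhat lower in 231-BR cells, with 9.43, 8.66 and 9.07 FPKM against 12.12, 11.41 and 11.02 FPKM, a log2 difference of -0.34. Receptor and partner exchanged their order between the lines. In 231-BR cells the lowest AHR value, 11.31 FPKM, was above the highest of ARNT, 9.43 FPKM. In MDA-MB-231 cells the lowest ARNT value, 11.02 FPKM, was above the highest of AHR, 7.36 FPKM.

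The 2 feedback genes were higher in 231-BR cells. TIPARP, a mono-ADP-ribosyltransferase that acts on the receptor, had the highest level of the members in both lines, with 28.12, 29.06 and 27.83 FPKM in the 231-BR libraries and 21.75, 21.74 and 21.35 FPKM in the others. Its log2 difference was 0.39. AHRR, the repressor that competes with AHR for ARNT, had the lowest level, with 0.73, 0.62 and 0.61 FPKM in the 231-BR libraries and 0.23, 0.29 and 0.32 FPKM in the parental ones. The log2 difference of AHRR was 0.99, and at such levels it depends on the pseudocount, falling to 0.37 with a pseudocount of 1. The libraries of the lines overlapped for none of the 6 members, where the same held for 78.4% of all genes tested, and nothing is read from this count because the contrast was in view when the members were picked.

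**Figure D1:**
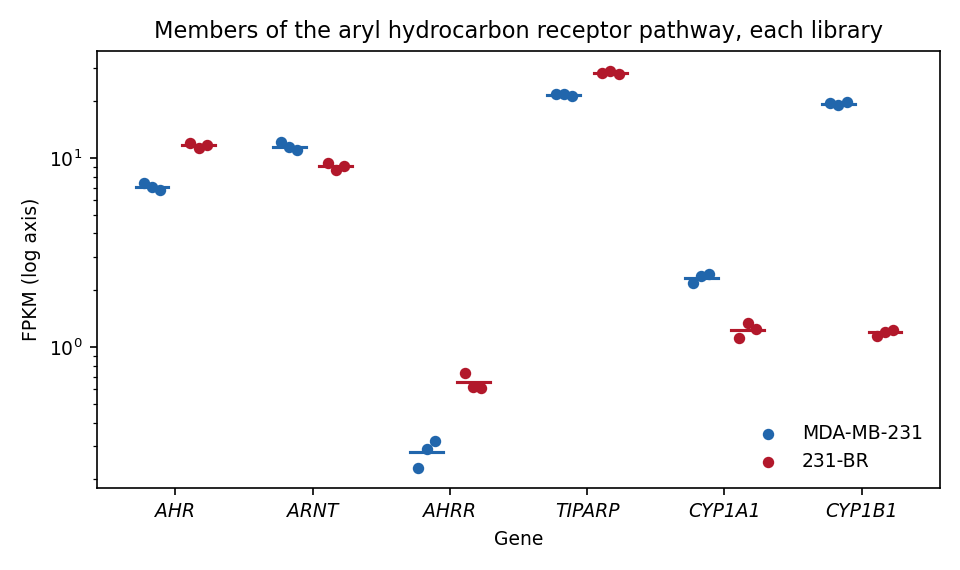
FPKM (log axis) of the 6 genes in each library, with MDA-MB-231 in blue and 231-BR in red, each point a library and each bar the mean of 3. CYP1B1 is at 19.5 FPKM on average in blue and at 1.20 FPKM in red, next to CYP1A1, whereas AHR, AHRR and TIPARP are higher in 231-BR cells.

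In MDA-MB-231 cells the levels ran, from the highest, TIPARP, CYP1B1, ARNT, AHR, CYP1A1 and AHRR, and no neighbours in this order had overlapping libraries. In 231-BR cells the order was TIPARP, AHR, ARNT, CYP1A1, CYP1B1 and AHRR. Here CYP1A1 and CYP1B1 could not be separated, since their libraries overlapped, whereas the other neighbours did not overlap.

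Ratios taken within a library do not depend on its scaling. CYP1B1 over CYP1A1 was 8.95, 8.06 and 8.14 in the MDA-MB-231 libraries and 1.03, 0.896 and 0.992 in the 231-BR libraries. The P450 genes were thus at nearly equal levels in 231-BR cells. AHR over ARNT was 0.614 ± 0.00638 in the parental line and 1.29 ± 0.0161 in 231-BR cells (SD, n = 3), with a tight spread in either line. AHRR over AHR was 0.0398 ± 0.00801 against 0.0558 ± 0.00451 (SD, n = 3), so that the repressor's RNA stayed far under that of the receptor in both lines, and the spread of this ratio was wide beside the difference. TIPARP over AHR was 3.06 ± 0.0957 in MDA-MB-231 cells and 2.43 ± 0.126 in 231-BR cells (SD, n = 3).

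**Figure D2:**
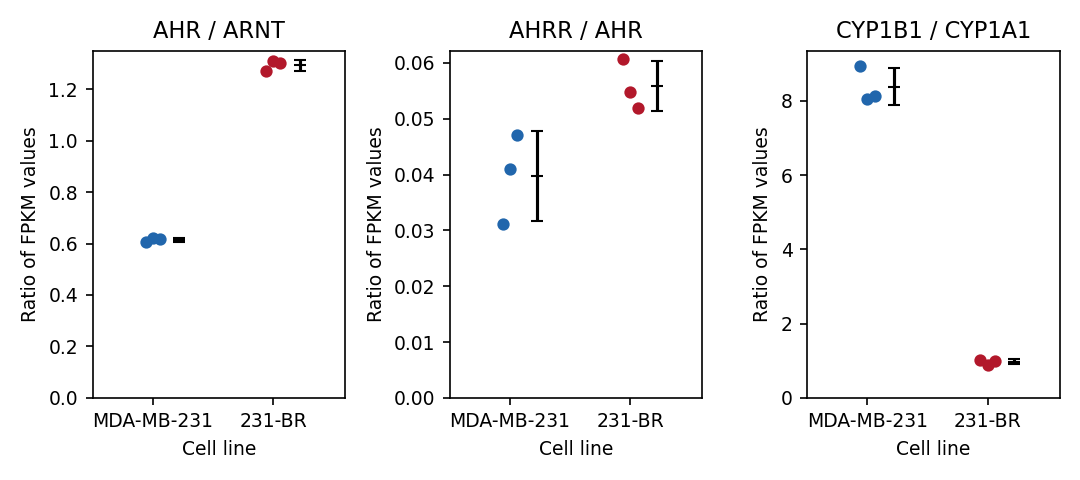
Ratios of FPKM values within each library, each axis starting at 0, with points for the 3 libraries of a line and a bar for the mean ± SD. AHR over ARNT is near 0.614 in MDA-MB-231 cells and 1.29 in 231-BR cells, whereas CYP1B1 over CYP1A1 drops from 8.38 to 0.972.

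The genes were located with GENCODE release 29 on GRCh38, the assembly that the submitters' processing notes name as GRCh38.p12. CYP1B1 lies at chr2:38066973-38109902 on the minus strand. It shares 170 bases with RMDN2 and 36456 bases with the antisense gene CYP1B1-AS1, both on the opposite strand, and 69 bases with RMDN2-AS1 on the same strand. Annotated CYP1B1 transcripts hold 6290 different windows of 100 bases, the read length. Of these windows, 6.38% also occur on either strand in transcripts of RMDN2 or CYP1B1-AS1. RMDN2 had 3.15 ± 0.452 FPKM in the parental line and 3.48 ± 0.426 FPKM in 231-BR (SD, n = 3). CYP1B1-AS1 and RMDN2-AS1 were not analysed here. CYP1A1 lies at chr15:74719542-74725610, ARNT at chr1:150809705-150876768 and TIPARP at chr3:156673235-156706770, and none of their windows occurred in another gene. AHR, at chr7:16916359-17346152, shared 30.4% of its windows with the overlapping annotations AC019117.2 and AC073332.1. AHRR, at chr5:304176-438291, overlaps PDCD6 on the same strand and shared 1.83% of its windows with it. PDCD6 was far more abundant, with 26.4 ± 0.441 FPKM in 231-BR and 35.3 ± 0.881 FPKM in parental cells (SD, n = 3), and how many of its fragments reached AHRR was not tested.

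Upstream sequence is shown for 3 of the classical targets among the members, since they share the response element as a textbook feature and yet lay in different directions, CYP1A1 lower and AHRR and TIPARP higher in 231-BR cells. RefSeq promoters on GRCh38.p14 were matched for 5 of the 6 members, all but CYP1B1. The 250 bases before an annotated start are printed 5′ to 3′ on the strand of the gene, with the core GCGTG or its complement CACGC in capitals. AHRR has 2 and TIPARP 3 start sites in the RefSeq table, and the first listed is shown. The windows are chr15:74725529-74725778 (minus strand) for CYP1A1, chr5:321464-321713 (plus strand) for AHRR and chr3:156674340-156674589 (plus strand) for TIPARP.
CYP1A1: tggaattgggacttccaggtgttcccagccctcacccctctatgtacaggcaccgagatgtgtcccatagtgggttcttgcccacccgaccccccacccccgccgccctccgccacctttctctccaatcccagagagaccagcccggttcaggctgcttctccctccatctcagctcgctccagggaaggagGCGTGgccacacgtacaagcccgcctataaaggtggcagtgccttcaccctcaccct
AHRR: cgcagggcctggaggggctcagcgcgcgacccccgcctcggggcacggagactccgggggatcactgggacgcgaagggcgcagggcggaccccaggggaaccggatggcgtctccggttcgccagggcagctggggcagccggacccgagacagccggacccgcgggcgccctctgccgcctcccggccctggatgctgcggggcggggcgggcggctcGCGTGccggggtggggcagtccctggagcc
TIPARP: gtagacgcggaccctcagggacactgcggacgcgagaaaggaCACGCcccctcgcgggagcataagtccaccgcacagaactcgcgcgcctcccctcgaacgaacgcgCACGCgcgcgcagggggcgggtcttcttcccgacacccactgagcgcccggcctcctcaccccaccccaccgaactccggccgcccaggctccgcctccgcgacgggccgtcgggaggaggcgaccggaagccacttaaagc
CYP1A1 held 1 core, on the strand of the gene, beginning 57 bases before the start. AHRR held 1 core on the strand of the gene at 30 bases, and TIPARP held 2 on the opposite strand at 208 and 142 bases. The AHRR core belonged to the longer form TNGCGTG, which was found in no other window of the members. The second AHRR start site held 2 cores, at 247 and 42 bases, whereas the other TIPARP sites and the windows of AHR and ARNT held none in these letters. Of 35116 promoters, 32.2% held at least 1 core on either strand, 10.2% held at least 2 and 4.52% held TNGCGTG, so the core alone is common. Sequence beyond the 250 bases was not searched, and whether the receptor binds at the marked cores was not tested.

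To place the members among the genes they work with, 165 other genes in 6 lists were compared between the lines with limma on log2(FPKM + 0.1), with p-values adjusted by the Benjamini-Hochberg method over all 13465 genes tested. Of these genes 144 were in the table and 105 passed the filter on low values. At an adjusted p under 0.05, 231-BR cells had 53 of the 105 at a higher and 34 at a lower level, and 18 did not pass. The split was 45 higher and 39 lower after median-of-ratios scaling and 43 and 40 after quantile normalization. Over all genes tested, 77.3% passed, 44.4% as higher and 32.9% as lower, against 82.9% of the listed genes, 50.5% as higher and 32.4% as lower. The median log2 fold change was 0.16 over the lists and 0.08 over all genes. Past a log2 fold change of 1 in size, 20 listed genes were higher and 10 lower, together 28.6% of the lists beside 15.2% of all genes tested, of which 10.9% were higher and 4.34% lower. Of the genes that passed, 8 of the higher had a parental mean under the filter's 0.1 FPKM and 2 of the lower a 231-BR mean under it, and as such genes had to differ to be tested, nothing is read from these counts. The lists were drawn up with earlier results of these data known.

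**Figure D3:**
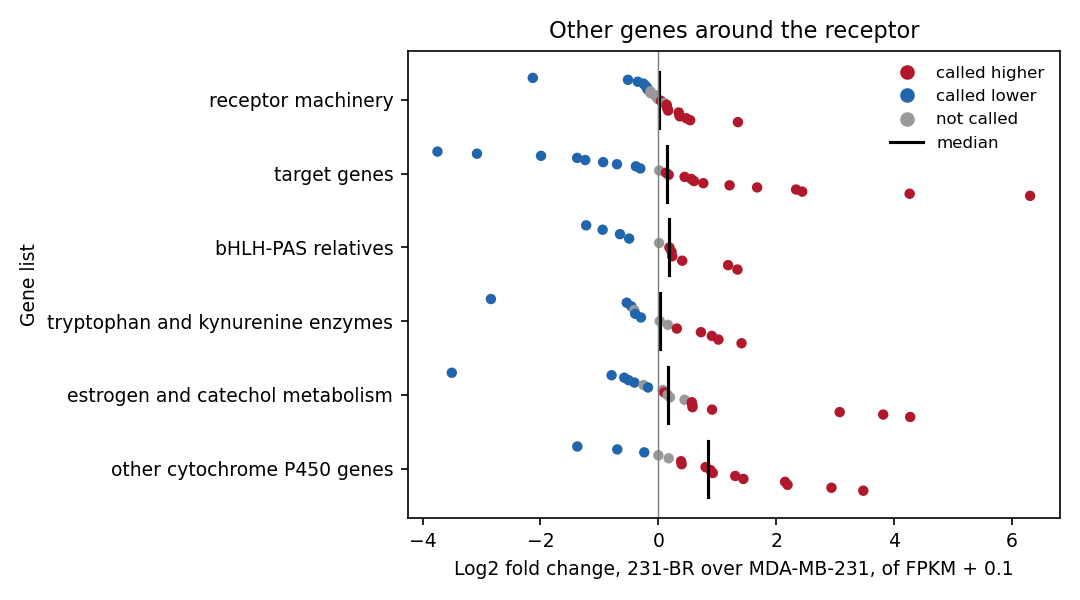
Log2 fold change of each tested gene (horizontal axis, 231-BR over MDA-MB-231 on FPKM + 0.1) in the 6 lists, red where called higher, blue where called lower and grey where not called, with a black line at each list's median. The target genes spread to both sides, from -3.75 to 6.31, around a median of 0.15.

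The machinery of the receptor was split nearly as all genes tested were. Of 24 genes tested, 11 rose, 7 fell and 6 did not pass, around a median of 0.02. That is 45.8% higher and 29.2% lower, beside 44.4% and 32.9% of all genes tested. In each direction 1 gene passed a log2 fold change of 1, together 8.33% beside 15.2% of all genes. ARNT2, a relative of ARNT that can also pair with PAS proteins, rose from 1.36 ± 0.0306 to 3.63 ± 0.240 FPKM (SD, n = 3), by 1.35 on the log2 scale (standard error 0.0769, adjusted p = 9.5e-08 from limma). ARNT2 thus remained under ARNT itself in both lines. RELB, an NF-kB subunit that can pair with AHR, fell from 7.57 ± 0.230 to 1.67 ± 0.336 FPKM (SD, n = 3, log2 fold change -2.13, adjusted p = 7.9e-08 from limma). The chaperones that hold the receptor in the cytoplasm had no common direction. HSP90AB1 fell from 1473 ± 17.1 to 1031 ± 7.54 FPKM (SD, n = 3), by 0.51 on the log2 scale. HSP90AA1, named after its values were seen, rose from 1377 ± 47.3 to 1752 ± 9.6 FPKM (SD, n = 3), by 0.35 (adjusted p = 9.3e-07 from limma). PTGES3, a cochaperone, fell from 294 ± 3.03 to 252 ± 2.54 FPKM (SD, n = 3), by 0.22. After quantile normalization the PTGES3 difference was -0.065 (adjusted p = 0.015 from limma). SMARCA4, the ATPase of the SWI/SNF remodelling complex, rose by 0.54 on the log2 scale.

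The other target genes had no common direction. Of 22 tested, 12 rose and 9 fell, and 1 did not pass. That is 54.5% higher and 40.9% lower, beside 44.4% and 32.9% of all genes tested. Past a log2 fold change of 1 there were 6 higher and 5 lower, together 50.0% beside 15.2% of all genes. The list was drawn up with earlier results known, and nothing is read from these shares. NQO1, a quinone reductase under the control of both AHR and NRF2, had 264.02, 270.76 and 273.01 FPKM in the MDA-MB-231 libraries and 99.93, 104.25 and 106.74 FPKM in the 231-BR libraries. NQO1 fell, as the P450 genes were lower, by 1.38 on the log2 scale (standard error 0.0281, adjusted p = 7.9e-11 from limma). ALDH3A1, an aldehyde dehydrogenase of the same gene battery, went the other way, rising from 0.0667 ± 0.0351 to 3.06 ± 0.110 FPKM (SD, n = 3, log2 fold change 4.27, adjusted p = 5.8e-09 from limma), or by 1.93 with a pseudocount of 1. The parental mean of ALDH3A1 was under the filter's 0.1 FPKM. It was thus tested only through its 231-BR level, and nothing is read from its adjusted p. CYP1A2, the third member of the CYP1 family, had at most 0.08 FPKM in any library and was not tested.

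Other targets are also controlled by many other pathways. SERPINB2, an inhibitor of plasminogen activators, fell from 241 ± 8.50 to 28.4 ± 0.722 FPKM (SD, n = 3), by 3.08 on the log2 scale. IL1B, an inflammatory cytokine, fell from 13.0 ± 0.641 to 0.880 ± 0.122 FPKM (SD, n = 3). EREG, a ligand of the EGF receptor, rose from 0.307 ± 0.0306 to 32.2 ± 0.289 FPKM (SD, n = 3), by 6.31 on the log2 scale (standard error 0.0693, adjusted p = 3.0e-12 from limma). ALDH1A3, a retinaldehyde dehydrogenase, fell by 0.38, and after quantile normalization by 0.74. SLC7A5, a transporter that carries tryptophan and kynurenine, rose from 112 to 123 FPKM (log2 fold change 0.13, adjusted p = 0.00064 from limma), a call that was lost after median-of-ratios scaling (0.089), the highest of its 14 alternatives, which ran from 5.1e-05.

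Among the other bHLH-PAS genes 6 rose, 4 fell and 1 did not pass of 11 tested. That is 54.5% higher and 36.4% lower, beside 44.4% and 32.9% of all genes tested. HIF1A, a hypoxia-regulated subunit that competes for ARNT, fell from 92.9 ± 2.48 to 48.2 ± 0.848 FPKM (SD, n = 3), by 0.94 on the log2 scale (adjusted p = 9.0e-10 from limma). Even so, HIF1A stayed above AHR in both lines. EPAS1, another such subunit, was named after its values were seen. It rose from 4.85 ± 0.261 to 5.69 ± 0.195 FPKM (SD, n = 3), by 0.23 (adjusted p = 0.0052 from limma). NPAS2, a circadian factor that pairs with BMAL1, rose from 23.0 ± 1.06 to 58.4 ± 0.398 FPKM (SD, n = 3, log2 fold change 1.34). The clock repressors PER2 and PER3 fell, by 1.22 (0.73 with a pseudocount of 1) and 0.65. PER1, named after its values were seen, rose from 2.23 ± 0.125 to 2.56 ± 0.125 FPKM (SD, n = 3), by 0.19 (adjusted p = 0.044 from limma). This PER1 call was kept under 5 of 14 alternatives, over which its adjusted p ran from 0.023 to 0.20. It was lost without any single library but MDA-MB-231 replicate 3 (0.051 to 0.15), and the sign turned after quantile normalization.

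Of a list of genes around tryptophan and the receptor's tryptophan-derived ligands, 5 were higher, 5 were lower and 3 did not pass of 13 tested. Besides enzymes of tryptophan metabolism, the list held the transporter genes SLC3A2 and SLC36A4 and the tRNA synthetase gene WARS. Each direction held 38.5%, beside 44.4% higher and 32.9% lower among all genes tested. The enzymes that open the ring of tryptophan were barely seen. IDO1 had 0.320 ± 0.108 FPKM in parental and 0.223 ± 0.110 FPKM in 231-BR cells (SD, n = 3, adjusted p = 0.21 from limma), and TDO2 had at most 0.14 FPKM in any library. Further along, AFMID, which turns formylkynurenine into kynurenine, rose from 7.51 ± 0.254 to 20.2 ± 0.535 FPKM (SD, n = 3), by 1.41 on the log2 scale. KYNU, which cleaves kynurenine, fell from 30.8 ± 0.176 to 4.21 ± 0.293 FPKM (SD, n = 3), by 2.84 (standard error 0.0511, adjusted p = 4.2e-11 from limma). AADAT, a transaminase that makes kynurenic acid, rose by 1.02, and MAOA, a monoamine oxidase, rose by 0.91, and after quantile normalization by 0.55. The metabolites themselves were not measured.

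Of the genes for estrogens and for the catechols and quinones that CYP1B1 forms from them, 8 rose, 6 fell and 5 did not pass of 19 tested. That is 42.1% higher and 31.6% lower, near the 44.4% and 32.9% of all genes tested. GSTM1, a glutathione transferase that has close relatives in its cluster, fell from 12.1 ± 0.453 to 0.980 ± 0.131 FPKM (SD, n = 3), by 3.50 (standard error 0.0881, adjusted p = 3.1e-10 from limma). POR, the reductase that passes electrons to microsomal P450 enzymes, had 11.9 ± 0.825 FPKM in parental and 12.5 ± 0.612 FPKM in 231-BR cells (SD, n = 3, adjusted p = 0.25 from limma). ESR1, the estrogen receptor, was under 1 FPKM on average in both lines, at 0.790 ± 0.0458 and 0.927 ± 0.133 FPKM (SD, n = 3, adjusted p = 0.16 from limma). The sign of the small POR and ESR1 differences changed with the scaling. GPER1, a membrane receptor for estrogen, had 0.06, 0.06 and 0.09 FPKM in the MDA-MB-231 libraries and 3.09, 3.3 and 3.17 FPKM in the 231-BR libraries (adjusted p = 7.7e-10 from limma). HSD17B2, which inactivates estradiol to estrone, was listed at 0 in 2 of the MDA-MB-231 libraries and had between 1.43 and 1.62 FPKM in the 231-BR libraries (adjusted p = 5.6e-08 from limma). The parental means of GPER1 and HSD17B2, 0.07 and 0.02 FPKM, were under the filter's 0.1 FPKM. Both genes were thus tested only through their 231-BR level, and nothing is read from their adjusted p. SULT1A3 is uncertain, because it has a near-identical copy and its libraries ranged from 1.03 to 4.87 FPKM in 231-BR and from 0 to 4.13 FPKM in MDA-MB-231 cells. Its call (adjusted p = 0.045 from limma) was lost without 231-BR replicate 1 or 2 (0.13 for either) and without MDA-MB-231 replicate 1 or 2 (0.17 and 0.16). Over all 14 alternatives its adjusted p ran from 5.6e-05 to 0.17, and 5 kept the call.

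In the list of other cytochrome P450 genes, which does not hold CYP2S1, 37 genes were in the table and 16 passed the filter. Of these 16, 11 rose, 3 fell and 2 did not pass the test. The shares were 68.8% higher and 18.8% lower, beside 44.4% and 32.9% of all genes tested. For 3 of the 11 the parental mean and for 1 of the 3 the 231-BR mean was under 0.1 FPKM, so that they were tested through their level in the other line, and nothing is read from the count. TBXAS1, thromboxane synthase, rose from 0.447 ± 0.0666 to 5.97 ± 0.172 FPKM (SD, n = 3), by 3.48 on the log2 scale (standard error 0.103, adjusted p = 9.7e-10 from limma), or 2.27 with a pseudocount of 1. CYP2J2, an arachidonic acid epoxygenase, rose by 1.44, CYP2U1, a fatty acid hydroxylase, by 1.31, and CYP24A1, which inactivates vitamin D, by 0.93, or 0.48 after quantile normalization. The 40 P450 genes ranked here were those of this list and of the CYP1 family. CYP2S1, counted among the target genes, was left out, with means of 0.960 FPKM in MDA-MB-231 and 1.34 FPKM in 231-BR cells. Among the 40, CYP1B1 was at rank 2 by mean FPKM in MDA-MB-231 cells, behind CYP51A1, the sterol demethylase. It was at rank 11 in 231-BR cells, where the mean of CYP2S1 was also higher. CYP51A1 and CYP2S1 were named here after their values were seen. CYP1B1 made up 22.6%, 22.8% and 23.4% of the summed FPKM of the 40 genes in the MDA-MB-231 libraries. In the 231-BR libraries it made up 1.20%, 1.31% and 1.34%. The sum itself was 84.8 ± 1.25 FPKM in parental and 93.4 ± 1.89 FPKM in 231-BR cells (SD, n = 3). Without CYP1B1 the sum was 65.4 ± 1.14 and 92.2 ± 1.93 FPKM (SD, n = 3).

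**Figure D4:**
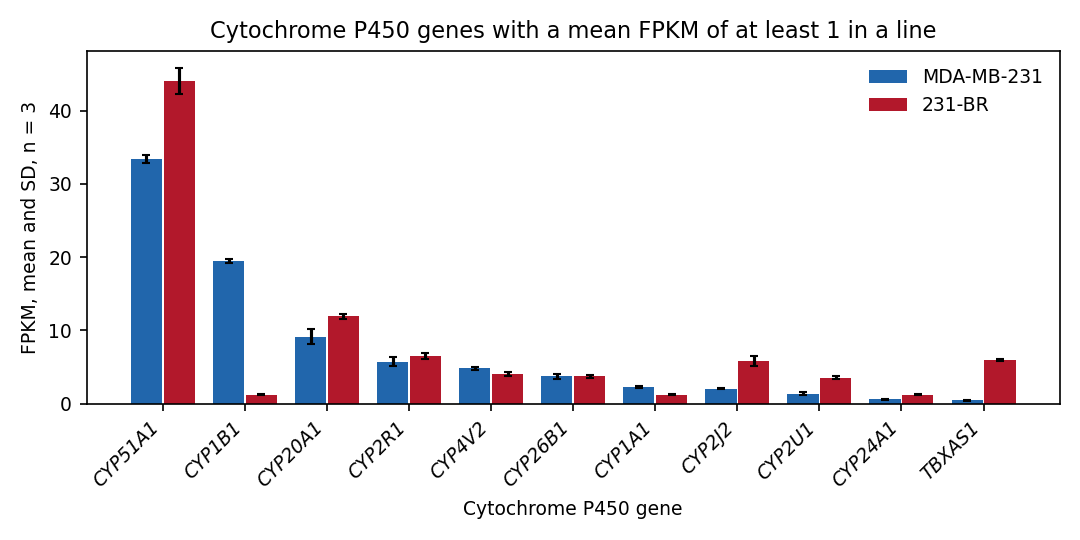
Mean FPKM and SD (n = 3 libraries per line, axis from 0) of the 11 genes, among the 40 cytochrome P450 genes ranked, that reach a mean of 1 in at least 1 line. MDA-MB-231 is in blue and 231-BR in red, and the genes are ordered by the level in MDA-MB-231 cells. CYP2S1, counted among the target genes, is not shown. CYP1B1 is second in MDA-MB-231 cells at 19.5 FPKM and at 1.20 FPKM in 231-BR cells, whereas TBXAS1 and CYP2J2 are higher in 231-BR cells.

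The genes beside CYP1B1 on chromosome 2 did not share the size of its difference. Of the 5 genes of the table on either side, in the order of RefSeq, 7 were lower, 1 was higher and 2 did not pass, with a median log2 fold change of -0.28, where 32.9% of all genes tested were lower and 44.4% higher around a median of 0.08. The nearest were RMDN2, at 0.14 (adjusted p = 0.29 from limma), and ATL2, an endoplasmic reticulum GTPase, at -0.83 (standard error 0.0352, adjusted p = 1.2e-08 from limma), the lowest of the 10. ATL2 had between 11.78 and 12.28 FPKM in the 231-BR libraries and between 20.96 and 21.92 FPKM in the MDA-MB-231 libraries. NDUFAF7, PRKD3, HNRNPLL, GALM, SRSF7 and GEMIN6 fell by 0.66, 0.65, 0.36, 0.18, 0.20 and 0.40. CDC42EP3 had 43.3 and 43.4 FPKM (adjusted p = 0.95 from limma). QPCT, glutaminyl cyclase, was the exception, with at most 0.02 FPKM in the MDA-MB-231 libraries and 1.08, 1.07 and 0.82 FPKM in the 231-BR libraries. It was tested only through its 231-BR level.

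**Figure D5:**
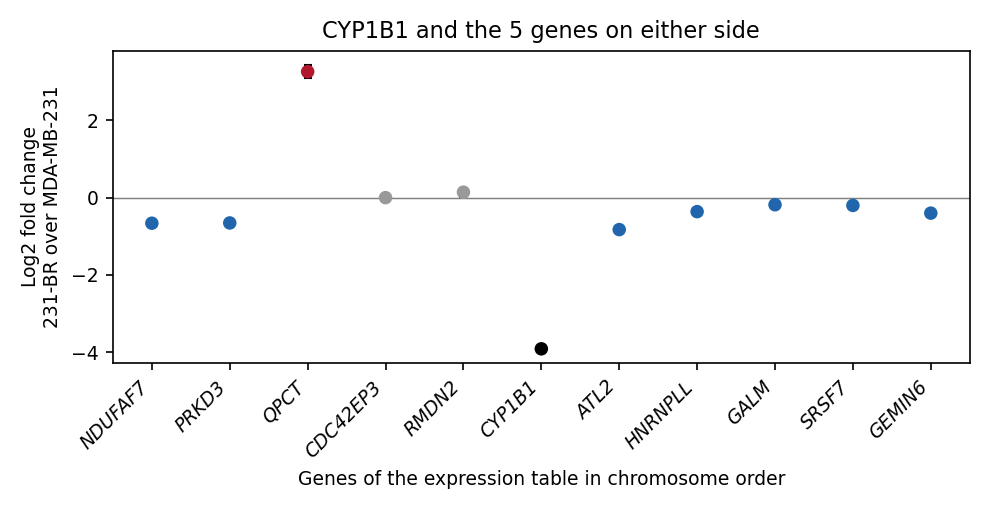
Log2 fold change (231-BR over MDA-MB-231, bars for the standard error) of CYP1B1 in black and of the 5 genes on either side in chromosome order, red where called higher, blue where called lower and grey where not called. CYP1B1 lies at -3.91, and the lowest of its neighbours, ATL2, at -0.83.

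The 5 genes whose pattern over the 6 libraries was most like that of CYP1B1 were SORCS2, LTBP2, TSPYL5, ALOX5AP and CXCL8. Likeness was the root mean square difference of log2(FPKM + 0.1), centred on each gene's own mean, and it ran from 0.0522 for SORCS2 to 0.105 for CXCL8 among 11417 genes that reached a mean of 1 FPKM in a line. LTBP2, a latent TGF-beta binding protein, had 9.89, 9.37 and 10.02 FPKM in the MDA-MB-231 libraries and 0.61, 0.57 and 0.56 FPKM in the 231-BR libraries. CXCL8, the chemokine interleukin-8, had 65.5 ± 3.74 against 4.60 ± 0.522 FPKM (SD, n = 3). TSPYL5 and ALOX5AP, the latter the activating protein of 5-lipoxygenase, were listed at 0 in every 231-BR library, and SORCS2, a sortilin-family receptor, had at most 0.01 FPKM there. For these 3 genes the likeness depends on the pseudocount. With 2 lines and 6 libraries, such a likeness reflects mainly the difference between the lines.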

How the data were processed

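Poly(A) RNA of each line was sequenced as paired reads of 100 bases on a BGISEQ-500. According to the methods and the submitters' processing notes, the authors filtered the reads, mapped them to GRCh38.p12 with HISAT2 2.0.4 and to a gene set with Bowtie2 2.2.5, and deposited FPKM values with 2 decimals. The program that computed the FPKM is not given in the sources used here. The library files hold the values of the joint table. Read depth is unknown, so no interval that needs it is given.

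A linear model of log2(FPKM + 0.1) with a term for the line was fitted in limma 3.58.1 under R 4.3.3 (lmFit, eBayes with trend) to the 13465 genes with a mean of at least 0.1 FPKM. All 6 members passed this filter. The fit was tested on simulated data. The pseudocount draws the log2 fold changes of genes with low FPKM toward 0. The members, lists and tests were chosen with earlier results of these data known. Named genes were the members, in each list the 4 largest differences among called genes with a mean of at least 1 FPKM in a line, 14 genes of known role, the 5 genes on either side of CYP1B1 and the 5 most similar patterns. In the table, 25 symbols turned into dates were replaced through gene identifiers. Figures were drawn with matplotlib 3.10.9 in Python 3.11.15. Alternatives were other pseudocounts, filters, scalings and variance models, a replicate block and leaving out each library. Results for 2 single genes named by this rule are not reported here.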

Additional observations from a re-analysis of the deposited data

How the results depend on the processing

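The log2 difference of CYP1B1 kept its sign under all 14 alternatives. It was -3.22 with a pseudocount of 1, -4.01 with a pseudocount of 0.01, -3.99 after median-of-ratios scaling and -4.17 after quantile normalization, and between -3.93 and -3.88 when single libraries were left out. The other 5 members also kept their sign under every alternative that gave a value, and AHRR gave none at a mean FPKM of at least 1. Leaving out a library gave 49 to 53 higher, 33 to 35 lower and 27 to 29 listed genes past a log2 fold change of 1 in either direction. With a pseudocount of 1 the last count was 18, beside 30 as reported, since that setting draws the log2 fold changes of low genes toward 0. Quantile normalization shifted the median of all genes by -0.14, and 45.6% instead of 57.4% of all calls were then higher in 231-BR cells. Among genes that had not passed, the sign changed for 2: ESR1 to -0.25 after quantile normalization, and POR to -0.0040 after median-of-ratios scaling and -0.014 after quantile normalization. The PER1 difference was -0.13 after quantile normalization. With the replicate number as a block, 52 listed genes were higher and 35 lower, and the log2 difference of CYP1B1 stayed at -3.91. The numbers gave no pairing, since libraries with the same number correlated in their deviations by 0.087, -0.04 and -0.106 across genes. FPKM values without counts do not show how many reads lie behind low genes such as AHRR.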
